A study of Homo sapiens with 6 samples.

Results

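Imprinted genes were examined in RNA-seq libraries of the third pharyngeal pouch endoderm (3PPE) cells that had been differentiated from human embryonic stem cells. They were chosen by name: 34 gene symbols known from the literature to be imprinted were looked up in GENCODE release 29, and they matched 35 of the 58735 gene rows of the count table, because IGF2 has 2 identifiers in that release. Gene positions are those of GENCODE 29 on GRCh38. Of the 34 genes, 19 are known to be expressed from the paternal allele, 8 from the maternal allele, and 7 show an imprint that depends on the isoform or the tissue. All 6 libraries came from the H9 (WA09) line, wild type in genotype, which was grown on mouse feeder cells and then taken through the same differentiation. Activin A, WNT3A and the ROCK inhibitor Y-27632 were given first and Activin A with B27 next, and the cells were then reseeded on Matrigel in retinoic acid (RA), SB431542, BMP4, IWP2 and B27. At day 7 the cells received siRNA by Lipofectamine 3000, either a negative control siRNA (NC, 3 libraries) or siRNA against HOXA3 (Si-HOXA3, 3 libraries), and RNA was taken at day 9 in both groups. The cultures were wild-type cells of 1 line, no untransfected library was included, and nothing in the labels says that the replicates were separate differentiations, so the p-values below measure the spread between these libraries, which may be technical.

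Imprinted genes are transcribed mainly from the copy inherited from 1 parent. Most lie in clusters, and each cluster is governed by a stretch of DNA, the imprinting control region, that carries DNA methylation on either the maternal or the paternal copy. The methylation is laid down in the germ line and is kept through early development by the zinc finger proteins ZFP57 and ZNF445, their partner TRIM28 and the maintenance methyltransferase DNMT1. Many of the genes regulate growth, and several are prominent in the placenta, in embryonic mesenchyme and in the brain. The count table gives 1 number per gene and does not separate the parental copies, so every value below is the sum of both alleles, and neither methylation nor allelic expression was measured.

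Promoter sequence is shown for 3 of the genes whose upstream region is methylated on 1 parental copy in normal tissue, since these 3 stand at the top, at zero and at a low level among the values that follow. The low level, that of SNURF, is uncertain, because 69.3% of its exonic bases are also annotated to other genes. Each line gives the 250 bases before the transcription start in RefSeq (build GRCh38.p14), 5′ to 3′ on the strand of the gene, with every CG dinucleotide, the base pair step that carries the methylation, in capitals. The windows are chr11:2001267-2001516 on the minus strand for H19, chr14:100825858-100826107 on the plus strand for MEG3, and chr15:24954737-24954986 on the plus strand for SNURF, which is also a start of SNRPN.
H19: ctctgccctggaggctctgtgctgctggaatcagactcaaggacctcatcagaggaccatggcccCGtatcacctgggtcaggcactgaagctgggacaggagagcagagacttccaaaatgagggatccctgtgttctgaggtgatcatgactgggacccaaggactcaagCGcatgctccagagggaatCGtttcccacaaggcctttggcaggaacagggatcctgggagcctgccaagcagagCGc
MEG3: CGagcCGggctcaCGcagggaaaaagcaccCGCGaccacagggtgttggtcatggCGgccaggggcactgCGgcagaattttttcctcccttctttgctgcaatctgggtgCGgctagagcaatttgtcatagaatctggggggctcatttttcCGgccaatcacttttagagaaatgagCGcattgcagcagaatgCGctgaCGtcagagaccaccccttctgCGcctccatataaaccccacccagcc
SNURF: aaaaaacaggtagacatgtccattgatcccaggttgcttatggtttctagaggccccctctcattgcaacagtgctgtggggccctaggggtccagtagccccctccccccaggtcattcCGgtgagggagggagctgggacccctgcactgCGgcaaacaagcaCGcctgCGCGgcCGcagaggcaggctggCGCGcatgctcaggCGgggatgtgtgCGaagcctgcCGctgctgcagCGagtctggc
The H19 window held 4 CG dinucleotides, the MEG3 window 13 and the SNURF window 12, beside a median of 11 over all 35116 promoter windows in the table, with quartiles of 3 and 23. The core motif that ZFP57 binds when methylated, TGCCGC, was searched on both strands (TGCCGC and GCGGCA). It was found 0 times in the H19 window, 1 time in the MEG3 window and 2 times in the SNURF window, and 12.7% of all windows held it at least once. Promoter windows were given for 22 of the 34 genes, 51 in all, and 16 of those 51 windows, from 12 genes, held the motif. Several of these windows overlap or are shared between genes, so they are not independent of each other. A match is a string of letters and not a bound site.

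Each library held between 14117150 and 15282307 counts, so a count of 3, taken here as the limit that a count of 0 allows, corresponds to 0.197 to 0.211 CPM. CPM are counts scaled to the size of the library, here with the TMM factors of edgeR. This limit covers counting error only. Levels are given as CPM, and levels of different genes are compared only as CPM per kb of annotated exon. HOXA3, the targeted gene, had 248, 240 and 236 counts in NC, against 159, 199 and 220 in Si-HOXA3. The groups did not overlap in counts, but at 15.5 to 16.6 CPM against 10.9, 13.2 and 15.5 CPM they did, and the log2 fold change was -0.27 (SE 0.157, edgeR adjusted p = 0.828), so a knockdown of HOXA3 mRNA was not detectable at day 9 by this test. The value was -0.15 without Si-HOXA3 replicate 1 and -0.40 with Si-HOXA3 replicate 3 left out. By qRT-PCR and Western blot, the study reports reduced HOXA3 mRNA and protein after the HOXA3 siRNA. Si-HOXA3 replicate 2 stood apart from the rest. For each library the deviation of log2 CPM from the mean of the other 5 libraries, of both groups, was taken. Its SD over all genes tested was 0.406 in Si-HOXA3 replicate 2, against 0.262 to 0.298 in the other 5 libraries. Over the imprinted genes the same SD was 0.490 in that library and 0.183 to 0.258 in the others, and it held the lowest of the 6 values for 9 and the highest for 10 of the 29 imprinted genes tested.

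The labelled cell type was checked against its markers. Of 10 pharyngeal pouch endoderm markers, 6 averaged under 1 CPM, and the endoderm and pouch transcription factor genes FOXA2, SOX17 and PAX1 had between 0 and 2 counts in each library. On the other side, EYA1 was present at 32.0 to 44.6 CPM and HOXA3 at 10.9 to 16.6 CPM. The summed level of the list, 970 to 986 CPM in NC, against 980 to 1007 CPM in Si-HOXA3, was mostly that of the epithelial genes CDH1 and EPCAM. Trophoblast and amnion markers summed to 1684 to 1760 CPM in NC, against 1747 to 1881 CPM in Si-HOXA3 (9 of 10 above 1 CPM, with KRT7, HAND1 and GATA3 among the highest), and mesenchyme markers to 4532 to 4704 and 4552 to 5057 CPM (9 of 10 above 1 CPM). Liver and neural markers stayed under 8 CPM in sum. Most defining transcription factors of the labelled cell type were thus at or near 0, and 3PPE is used here only as the label. In bulk RNA, fewer cells of a type and less RNA per cell cannot be told apart, and this holds for each level below.

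The imprinted genes summed to between 4985 and 5267 CPM per library, of which GNAS, H19, PEG10 and MEST together made 72.8% to 78.0%. Of the 34 genes, 7 averaged at least 100 CPM, 21 lay between 1 and 100 CPM, and 6 averaged under 1 CPM, among them 3 with no count in any library. The plot of all 34 genes by locus shows that the spread between genes covered more than 3 powers of 10, while the 6 libraries of a gene mostly sat close together.

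**Figure D1:**
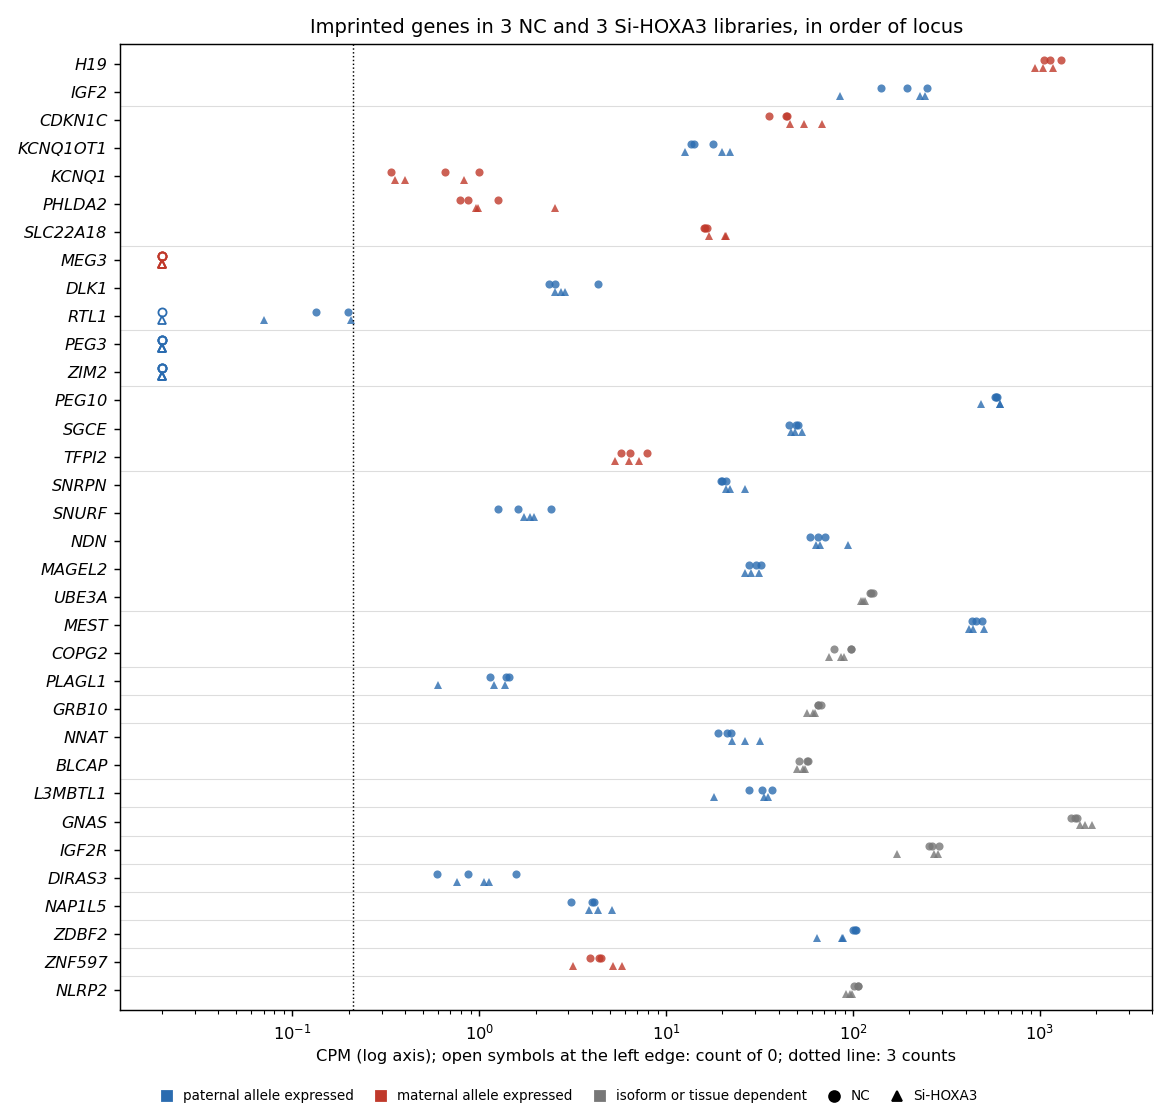
Level of each imprinted gene in each library, in CPM on a log axis, with genes in order of locus. Circles are NC and triangles Si-HOXA3 libraries, colours give the allele known to be expressed, open symbols at the left edge are counts of 0, and the dotted line is the level of 3 counts (0.211 CPM in the smallest library). MEG3, PEG3 and ZIM2 stand at 0 in all 6 libraries, and GNAS and H19 lie at 945 CPM or above.

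The growth cluster at 11p15.5 held the highest level per length. H19 (chr11:1995176-2001470), a maternally expressed long non-coding RNA that hosts a microRNA, had 1139, 1057 and 1302 CPM in NC replicates 1, 2 and 3 and 1182, 1038 and 945 CPM in Si-HOXA3 replicates 1, 2 and 3; values are listed in this order throughout. The groups overlapped, and H19 stood at 402 ± 43.1 (SD, n = 3) CPM per kb in NC and 364 ± 41.2 (SD, n = 3) in Si-HOXA3, the 45th highest of 34513 genes with a count on that scale. Its neighbour IGF2 (chr11:2129112-2149603), the paternally expressed fetal growth factor that shares enhancers with H19, had 248, 194 and 142 CPM in NC, against 229, 84.8 and 242 CPM in Si-HOXA3. IGF2 was the most uneven of the abundant genes: the lowest value was in Si-HOXA3 replicate 2, and NC replicate 3 was the next lowest. Its mean of 27.2 CPM per kb became 109 when only the exonic bases that no other gene overlaps were counted as length, because 75.0% of its exonic bases are also annotated to other genes. The second IGF2 identifier and the overlapping INS-IGF2 had no count in any library, and the level of IGF2 itself is uncertain to that extent.

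Genes whose exons lie wholly within another gene on the same strand had no count in 1089 of 1139 cases (95.6%), and those wholly under a gene of the opposite strand in 708 of 710 cases (99.7%), against 19568 of 41758 genes (46.9%) whose exons no other gene overlaps. How reads in shared exons were counted is not given in the sources used here, and the levels of IGF2 and, among the other genes, SNURF (69.3% of exonic bases shared), ZIM2 (42.0%), SNRPN (33.6%), MEST (27.4%), PEG3 (12.9%) and COPG2 (11.3%) are uncertain for this reason. For the remaining genes the overlap was under 10%.

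In the KCNQ1 domain, next to H19 and IGF2, the maternally expressed cell cycle inhibitor CDKN1C (p57, chr11:2883213-2885773) was the most abundant per length, at 19.6 CPM per kb over the 6 libraries. It had 44.1, 43.7 and 35.6 CPM in NC, against 45.8, 68.2 and 54.5 CPM in Si-HOXA3. KCNQ1OT1, the paternally expressed antisense RNA that silences its neighbours on the same chromosome copy, had 17.9, 13.5 and 14.1 CPM in NC, against 22.0, 12.6 and 19.9 CPM in Si-HOXA3, which over its 91.7 kb is only 0.182 CPM per kb. Both RNAs of this reciprocal pair were thus present in every library. The transporter gene SLC22A18 had 16.5, 16.1 and 15.9 CPM in NC, against 16.8, 20.7 and 20.8 CPM in Si-HOXA3. PHLDA2, a restraint on placental growth, was near 1 CPM in 5 libraries and at 2.53 CPM in Si-HOXA3 replicate 2. The potassium channel gene KCNQ1 had 5, 15 and 10 counts in NC, against 12, 6 and 5 counts in Si-HOXA3, too few for the test.

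The DLK1-MEG3 domain at 14q32 held few counts. MEG3 (chr14:100779410-100861031), the maternally expressed long non-coding RNA of the domain, had 0 counts in each of the 6 libraries, which allows a level of up to 0.197 to 0.211 CPM per library. Shared exons touch only 2.58% of MEG3, 1.82% of the stretches of 50 bases in it are found in a second annotated transcript too, and 22.6 of its 23.2 kb of exon are annotated to no other gene. The other transcripts made from the maternal copy of this domain were as scarce, with 7 counts in all for MEG8 and 3 for MEG9, in libraries NC replicate 3 and Si-HOXA3 replicate 2. RTL1, a retrotransposon-derived gene of placental vessels that is expressed from the paternal copy, had 2, 3 and 0 counts in NC, against 3, 0 and 1 in Si-HOXA3. DLK1, a paternally expressed transmembrane relative of Notch ligands, was detected in every library, at 2.35, 4.30 and 2.56 CPM in NC, against 2.54, 2.86 and 2.75 CPM in Si-HOXA3. Within 500 kb of the listed genes lie 21 protein-coding and lincRNA genes, of which 5 exceeded 1 CPM. Before DLK1 the nearest genes were low as well, with 0 counts for 3 lincRNA genes and 0.390 CPM for BEGAIN, and the first gene above 1 CPM was WDR25 at 10.9 CPM, placed at -349 kb from the lower end of DLK1. Farther on stood WARS, a tRNA synthetase gene, at 328 CPM, and YY1, a zinc finger transcription factor gene, at 142 CPM, although SLC25A47 between them was at 0.122 CPM. Beyond MEG3, no gene of the window averaged above 0.211 CPM. The 10 genes without a count in this window, MEG3 among them, were all lincRNA genes, a class of which 4173 of 7629 had no count in this table.

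The PEG3 domain at 19q13.4 had no count at all at its centre. PEG3 (chr19:56810077-56840728), a paternally expressed zinc finger gene of growth and maternal behaviour in mice, and ZIM2, which shares its first exons, had 0 counts in all 6 libraries. Of the 50-base stretches of PEG3, 13.4% are shared, all with ZIM2, which leaves most of the gene open to unambiguous counts. The neighbours MIMT1, USP29, ZIM3 and DUXA also had 0 counts in every library. On the ZIM2 side ZNF835 and AC006115.1 had 0 counts too, and the nearest gene above 1 CPM was ZNF71 at 15.7 CPM, with other genes near 0 beyond it (ZNF667 at 0.236 CPM, 0 counts for AC005498.1 and AC005498.2). On the other side it was ZNF264 at 40.9 CPM. Of the 31 genes within 500 kb, 15 exceeded 1 CPM and 10 had no count, 6 of them protein-coding, whereas 2736 of all 19951 protein-coding genes in the table had none. The plot of both neighbourhoods by distance shows genes above 1 CPM on one side of DLK1 only, and on both sides of PEG3.

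**Figure D2:**
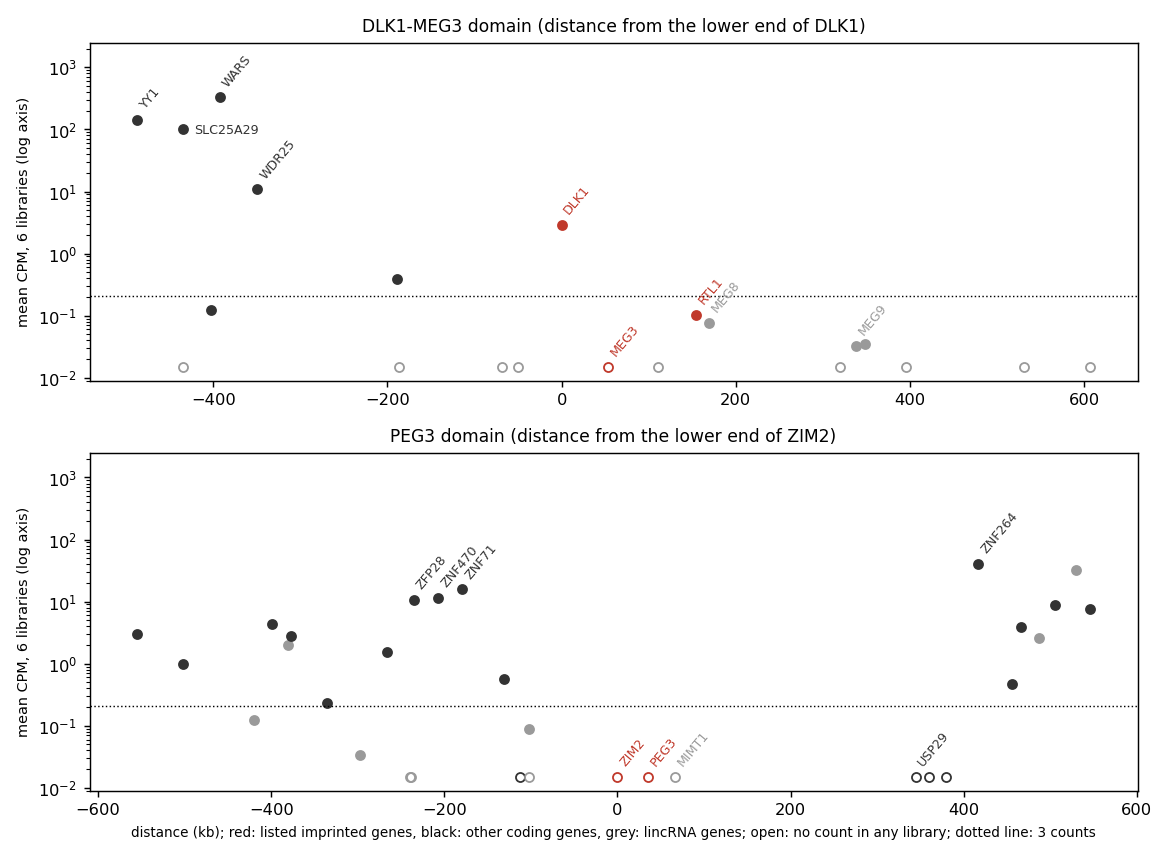
Mean level over the 6 libraries (CPM, log axis) of every protein-coding and lincRNA gene within 500 kb of the listed genes, against distance in kb from the lower end of DLK1 (upper panel) or ZIM2 (lower panel). Red marks listed imprinted genes, black other coding genes and grey lincRNA genes, open circles are genes with no count in any library and the dotted line is the level of 3 counts in 1 library. DLK1 at 2.89 CPM is the highest point of the centre of the upper panel, and the centre of the lower panel holds only open circles.

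At 7q21.3 the paternally expressed PEG10 (chr7:94656325-94669695), a retrotransposon-derived gene needed for placental development, had 584, 587 and 576 CPM in NC, against 611, 484 and 608 CPM in Si-HOXA3. It stood at 86.0 CPM per kb, and only Si-HOXA3 replicate 2 departed from the others. SGCE, the epsilon-sarcoglycan gene that shares its promoter region with PEG10 on the opposite strand, had between 45.5 and 53.3 CPM. TFPI2, a protease inhibitor gene whose maternal expression is known from the placenta, lay between 5.35 and 7.93 CPM. Per length, PEG10 thus stood far above both neighbours, whose levels of 2.35 CPM per kb for SGCE and 2.42 CPM per kb for TFPI2 overlapped between libraries.

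At 7q32.2 MEST (chr7:130486171-130506465), a paternally expressed gene of a hydrolase family that is abundant in embryonic mesoderm, had 435, 489 and 453 CPM in NC, against 416, 500.2 and 440.2 CPM in Si-HOXA3. COPG2, which encodes a coat protein subunit of transport vesicles and runs towards MEST from the other strand, had 78.9, 97.0 and 97.9 CPM in NC, against 74.3, 86.2 and 89.8 CPM in Si-HOXA3. For both genes replicate 1 was the lowest of its group. Their levels were 95.1 and 21.1 CPM per kb, and 131 and 23.8 CPM per kb of unshared exon.

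In the 15q11-q13 cluster, the region of the Prader-Willi and Angelman syndromes, the highest per length was NDN (chr15:23685400-23687330), the paternally expressed necdin gene of the MAGE family, at 36.2 CPM per kb. It had 58.9, 65.3 and 70.8 CPM in NC, against 66.3, 94.2 and 63.6 CPM in Si-HOXA3, with Si-HOXA3 replicate 2 above the rest. Its relative MAGEL2, which works with ubiquitin ligases, had 26.5 to 32.2 CPM (6.81 CPM per kb). SNRPN, which encodes a spliceosomal protein, had 19.7 to 26.3 CPM, and SNURF, the small upstream reading frame of the same transcript, 1.26 to 2.42 CPM; how reads of their shared exons were divided cannot be seen in the table. UBE3A, the ubiquitin ligase gene that is imprinted only in neurons, had 123, 125 and 127 CPM in NC, against 116, 110.3 and 113 CPM in Si-HOXA3. All 5 genes of the cluster were thus detected in every library.

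Among the genes that stand alone, GNAS (chr20:58839718-58911192), which encodes the stimulatory G protein alpha subunit and is imprinted for some of its isoforms, was the second of the imprinted genes per length and the 197th of the 34513 genes with a count. It had 1542, 1572 and 1461 CPM in NC, against 1733, 1900.4 and 1638 CPM in Si-HOXA3, or 123 CPM per kb over all 6 libraries. IGF2R, the receptor that clears IGF2, had 171 CPM in Si-HOXA3 replicate 2 and 256 to 288 CPM in the other 5 libraries. The NLR family gene NLRP2, known as a maternal-effect gene of the oocyte, had 101, 106 and 107 CPM in NC, against 91.2, 98.2 and 96.0 CPM in Si-HOXA3. NNAT, the neuronatin gene within an intron of BLCAP, had 19, 22.3 and 21.2 CPM in NC, against 26.3, 31.7 and 22.6 CPM in Si-HOXA3, while BLCAP lay between 50.4 and 57.5 CPM. GRB10, an adaptor that restrains insulin and IGF receptor signalling, lay between 56.9 and 67.6 CPM, and ZDBF2, a paternally expressed zinc finger gene, between 64.0 and 104 CPM. L3MBTL1, a reader of methylated histones, had 18.0 CPM in Si-HOXA3 replicate 2 and 27.8 to 36.9 CPM elsewhere. The rest were low: ZNF597 averaged 4.48 CPM, the nucleosome assembly relative NAP1L5 4.08 CPM, the transcription factor gene PLAGL1 1.19 CPM and the Ras-related growth suppressor DIRAS3 0.997 CPM.

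By known allele, the median level over the genes was 2.13 CPM per kb for the 19 paternally expressed genes, 1.85 for the 8 maternally expressed genes, and 14.3 for the 7 whose imprint depends on isoform or tissue, none of which was under 1 CPM. Of the paternally expressed genes 4 averaged under 1 CPM and 3 at least 100 CPM, and of the maternally expressed genes 2 and 1. In the order of CPM per kb the leading 10 were H19, GNAS, MEST, PEG10, NDN, IGF2, COPG2, CDKN1C, NNAT and NLRP2. H19 was apart from the rest beyond the spread of the libraries, and so was GNAS from MEST, although per kb of unshared exon these 2 stood at 135 and 131. On that scale, which treats all counts as coming from unshared exon, IGF2, at 109, came before PEG10 at 88.9 and NDN at 36.2. IGF2 ran from 84.8 to 248 CPM between libraries, so its order beside PEG10 is within that spread. Lower in the order of CPM per kb, COPG2 (21.1), CDKN1C (19.6), NNAT (17.9) and NLRP2 (15.8) were close, and the CDKN1C libraries ranged across both neighbours.

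Genes that guard the imprints were looked at beside them. Of 15 imprint maintenance genes, 6 averaged under 1 CPM. ZFP57 had 0, 0 and 1 counts in NC, against 4, 0 and 0 in Si-HOXA3, whereas ZNF445 lay between 84.9 and 121 CPM. The highest per length were TRIM28 (703 to 901 CPM), the de novo methyltransferase gene DNMT3B (105 to 152 CPM) and DNMT1 (164 to 232 CPM). DPPA3, which shields imprints in the early embryo, had no count. None of the 10 that could be tested passed an unadjusted p of 0.05 between the groups, where 6.36% of all genes did, and the median log2 fold change was -0.02.

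Si-HOXA3 was then compared with NC to ask whether the level of any imprinted gene moved with the HOXA3 siRNA. With the edgeR quasi-likelihood test over all 16561 genes with enough counts, 29 imprinted genes were tested and 0 passed an adjusted p of 0.05; the smallest adjusted p among them was 0.710. Over all genes 1 passed, which is 0.00604%. At an unadjusted p of 0.05, 3 of the 29 passed, where 6.36% of all genes did. DESeq2 gave 3 unadjusted (5.65% of all genes) and 0 adjusted, and limma-voom 5 unadjusted (13.4% of all genes) and 0 adjusted. The log2 fold change was below 0 for 17 of the 29 and for 49.6% of all genes, and the medians were -0.05 and 0.00. The medians by allele were -0.03 for 16 paternally expressed genes, 0.21 for 6 maternally expressed genes and -0.13 for 7 isoform- or tissue-dependent genes. The maternal value was 0.21 with Si-HOXA3 replicate 2 and -0.02 without it, and the paternal value -0.03 with it and 0.03 without it. The fit without that library tested 30 imprinted genes, not 29, so its medians need not be over the same genes.

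**Figure D3:**
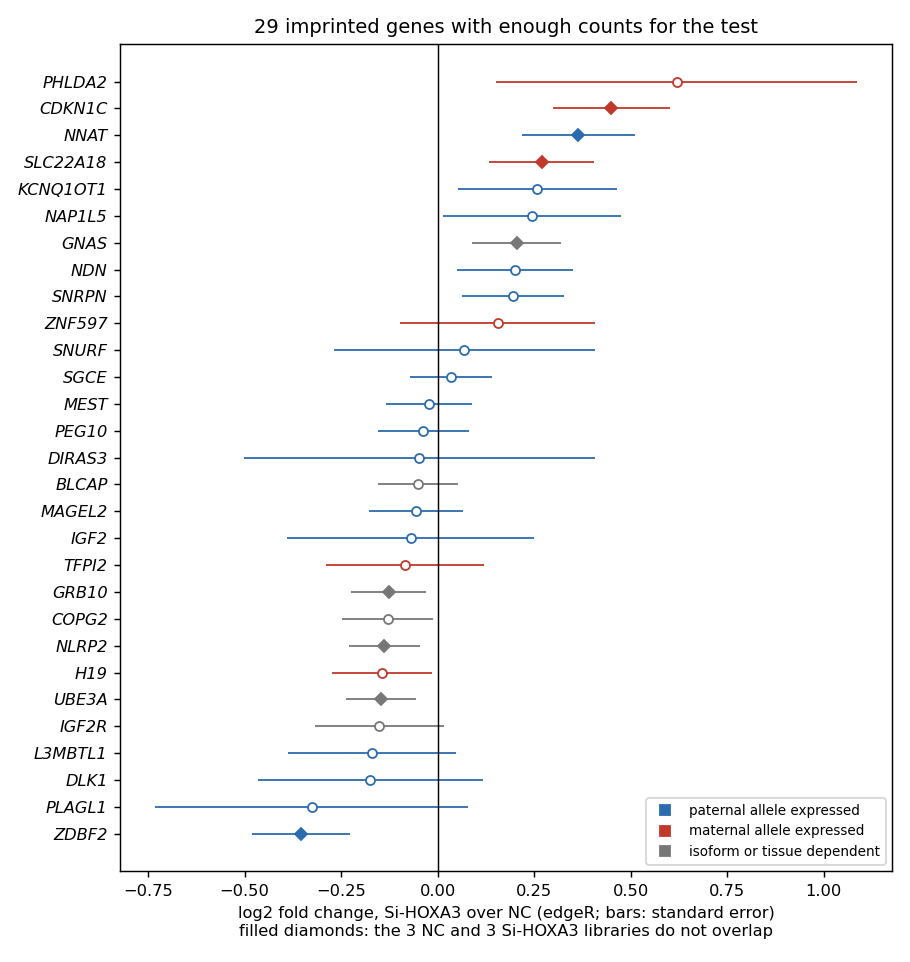
Log2 fold change of Si-HOXA3 over NC for the 29 imprinted genes tested, from edgeR, with bars of 1 standard error and colours by known allele. Filled diamonds are the 8 genes whose NC and Si-HOXA3 libraries did not overlap, and the values run from -0.35 for ZDBF2 to 0.62 for PHLDA2, the latter with an SE of 0.467.

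The 3 genes with an unadjusted p under 0.05 were ZDBF2, CDKN1C and NNAT. ZDBF2 (chr2:206274663-206314438) had 99.4, 103 and 104 CPM in NC, against 87.2, 64.0 and 88.0 CPM in Si-HOXA3. All Si-HOXA3 libraries were below all NC libraries, and replicate 2 was the lowest. The log2 fold change was -0.35 (SE 0.126), with an unadjusted p of 0.0170 and an adjusted p of 0.720 in edgeR, and it was -0.22 without Si-HOXA3 replicate 2. For CDKN1C, whose values are given above, all Si-HOXA3 libraries were above all NC libraries, though Si-HOXA3 replicate 1 at 45.8 CPM was close to NC replicate 1 at 44.1 CPM. Its log2 fold change was 0.45 (SE 0.152), with an unadjusted p of 0.0129 and an adjusted p of 0.710 in edgeR, and 0.28 without Si-HOXA3 replicate 2. NNAT had a log2 fold change of 0.36 (SE 0.147), with an unadjusted p of 0.0304 and an adjusted p of 0.733 in edgeR, and 0.23 without Si-HOXA3 replicate 2. Its lowest Si-HOXA3 library, at 22.6 CPM, was barely above the highest NC library at 22.3 CPM. Without NC replicate 3, none of the 3 kept an unadjusted p under 0.05, and NNAT also lost it when NC replicate 1, Si-HOXA3 replicate 1 or Si-HOXA3 replicate 2 was left out.

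The groups did not overlap for 8 of the 29 imprinted genes, where the same was true of 13.3% of all genes tested. They were lower in Si-HOXA3 for 4 (6.88% of all genes) and higher for 4 (6.41% of all genes). With 3 libraries against 3 the exact permutation test gave p = 0.1, two-sided, for each of them, the smallest it can give. Beside the 3 genes above, UBE3A had a log2 fold change of -0.15 (SE 0.0901, edgeR adjusted p = 0.828), with an SD of no more than 2.64 CPM in either group. NLRP2 had one of -0.14 (SE 0.0927, edgeR adjusted p = 0.843). GRB10 had 67.6, 65.0 and 64.6 CPM in NC, against 61.3, 56.9 and 62.5 CPM in Si-HOXA3, with a log2 fold change of -0.13 (SE 0.0971, edgeR adjusted p = 0.854). Each of these 3 differences was under 2 standard errors. On the other side, GNAS had a log2 fold change of 0.20 (SE 0.114, edgeR adjusted p = 0.828), with 1525 ± 57.4 (SD, n = 3) CPM in NC, against 1757 ± 133 (SD, n = 3) CPM in Si-HOXA3, and SLC22A18 had one of 0.27 (SE 0.137, edgeR adjusted p = 0.791).

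**Figure D4:**
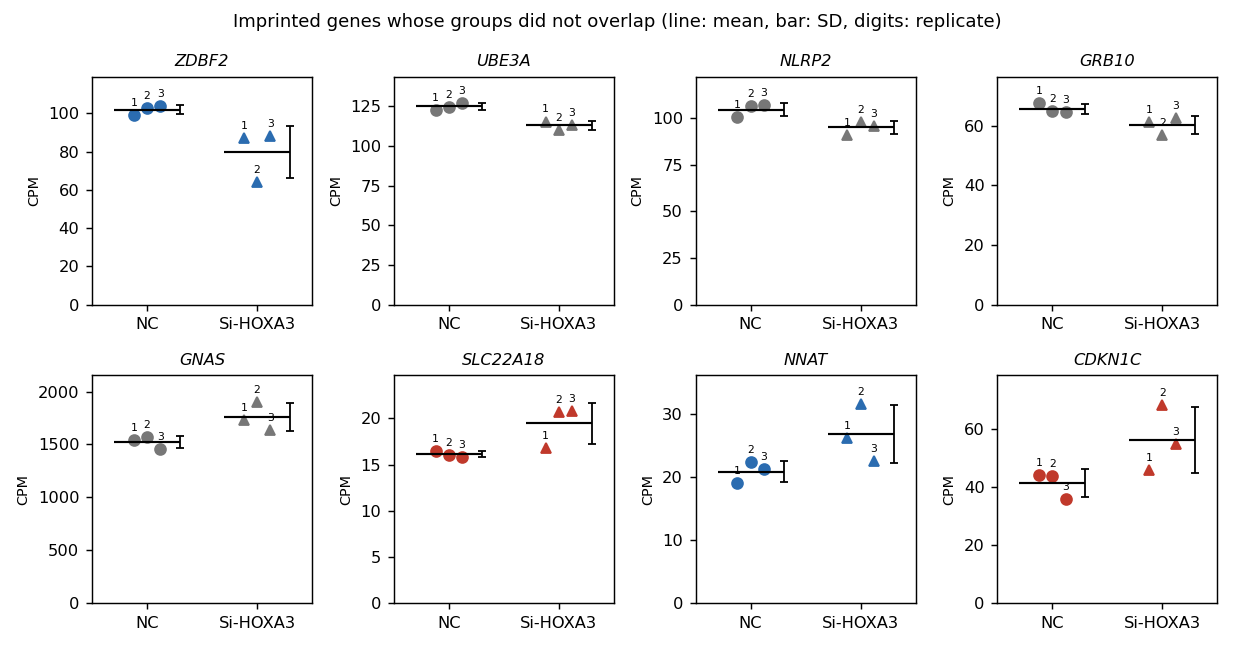
CPM of the 8 imprinted genes whose groups did not overlap, 1 panel per gene with its own axis from 0. Points are libraries with their replicate number, lines are group means and bars SD (n = 3). The upper row is lower and the lower row higher in Si-HOXA3, and replicate 2 is the Si-HOXA3 library farthest from NC for ZDBF2, UBE3A, GRB10, GNAS, NNAT and CDKN1C.

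Marker levels were compared between the groups as well. Pluripotency markers, mostly the RNA-binding protein gene LIN28A, summed to 1139 to 1181 CPM in NC, against 1190 to 1326 CPM in Si-HOXA3. These sums did not overlap, but LIN28A itself had an edgeR adjusted p of 0.856. By log2 fold change 6 of the 9 trophoblast and amnion markers tested were higher in Si-HOXA3 and 3 lower. The same split held for the 9 mesenchyme markers tested. All Si-HOXA3 libraries were higher for 3 of the former (GATA3, TFAP2A and VGLL1) and 2 of the latter (COL1A2 and THY1), where 6.41% of all genes were. Their edgeR adjusted p was 0.699 to 0.829. The lowest log2 fold change was -0.45 for CGA (edgeR adjusted p = 0.781). The part of these markers in the differences of the imprinted genes was not tested.

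The 21 other genes tested had overlapping groups, with log2 fold changes from -0.33 for PLAGL1 (SE 0.404) to 0.62 for PHLDA2. The value for PHLDA2 came from Si-HOXA3 replicate 2 and was 0.00044 without it. KCNQ1OT1 had 0.26 (SE 0.206), and 0.46 without that library, where it passed an unadjusted p of 0.05 (edgeR adjusted p = 0.271). H19 had a log2 fold change of -0.14 (SE 0.129, edgeR adjusted p = 0.867) and an exact permutation p of 0.4. IGF2 had -0.07 (SE 0.320, edgeR adjusted p = 0.972), and the sign turned to 0.27 without Si-HOXA3 replicate 2. PEG10 and MEST, at -0.04 (SE 0.118) and -0.02 (SE 0.112), were the abundant genes with the least difference, and COPG2 had -0.13 (SE 0.119). NDN had 0.20 (SE 0.151), and -0.0047 without Si-HOXA3 replicate 2. The standard errors show how fine a difference could have been seen: on the log2 scale they were 0.112 to 0.129 for H19, GNAS, PEG10 and MEST, 0.320 for IGF2, and above 0.4 for PHLDA2, DIRAS3 and PLAGL1, which had fewer than 40 counts in each library. The differences of the last group were not detectable at this depth.

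Ratios between neighbours of a domain were formed within each library, as log2 of (CPM + 0.5), so that library scaling cancels. H19 to IGF2 was 2.20, 2.44 and 3.20 in NC and 2.37, 3.61 and 1.96 in Si-HOXA3. The 2 libraries with the highest ratio, NC replicate 3 and Si-HOXA3 replicate 2, came from different groups, and the means of 2.61 ± 0.519 and 2.64 ± 0.856 (SD, n = 3) were closer than the replicates. CDKN1C to KCNQ1OT1 was 1.28, 1.65 and 1.30 in NC and 1.04, 2.39 and 1.43 in Si-HOXA3, again with the highest value in Si-HOXA3 replicate 2. Without that library the difference of this ratio turned from 0.21 to -0.18, and that of H19 to IGF2 from 0.03 to -0.45. PEG10 to SGCE (3.57 ± 0.0890 and 3.49 ± 0.281) and SNRPN to SNURF (3.22 ± 0.407 and 3.32 ± 0.234) overlapped between the groups. NNAT to BLCAP was the one ratio whose groups did not overlap, at -1.57, -1.33 and -1.25 in NC and -1.03, -0.80 and -1.14 in Si-HOXA3. Its difference was 0.40, and 0.30 to 0.47 with any 1 library left out. A ratio of MEG3 to DLK1 is not given, since MEG3 had no count.

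**Figure D5:**
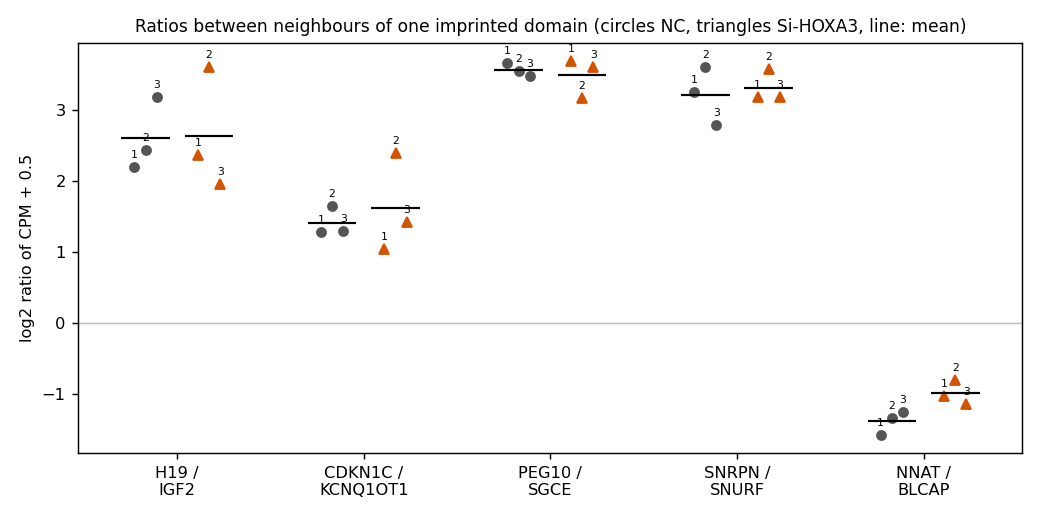
Log2 ratio of (CPM + 0.5) between 2 genes of the same imprinted domain in each library. Circles are NC and triangles Si-HOXA3, digits are replicate numbers and lines are group means. The groups overlap for 4 of the 5 ratios, and NNAT to BLCAP is higher in every Si-HOXA3 library.

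Other transcripts of the same imprinted domains and the partners of IGF2 were examined as lists. Of 37 further imprinted-domain transcripts, 22 were tested, 10 lower and 12 higher in Si-HOXA3, with a median log2 fold change of 0.07. In edgeR 2 of the 22 passed an unadjusted p of 0.05, where 6.36% of all genes did, and 0 passed an adjusted p of 0.05. These 2 were MKRN3, a paternally expressed ubiquitin ligase gene next to MAGEL2 (log2 fold change 0.51, SE 0.227, from 3.34 to 4.77 CPM in NC and from 4.72 to 6.05 CPM in Si-HOXA3), and HERC3, whose intron holds NAP1L5 (-0.35, SE 0.139, from 15.9 to 17.2 CPM in NC and from 12.2 to 14.4 CPM in Si-HOXA3). The groups overlapped for MKRN3. They did not for HERC3 and for the zinc finger gene ZNF331 (75.2 to 89.3 CPM in NC, against 63.1 to 72.6 CPM in Si-HOXA3), 2 of the 22 where 13.3% of all genes had no overlap. The most abundant per length were the nucleosome assembly gene NAP1L4 at 36.9, the inositol phosphatase gene INPP5F at 34.7 and the tetraspanin gene CD81 at 24.8 CPM per kb, and 18 of the 37 averaged under 1 CPM.

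Of 16 genes for IGF2 receptors, IGF binding proteins and proteins that bind IGF2 RNA, 15 were tested, 6 lower and 9 higher, with a median log2 fold change of 0.07. In edgeR 2 of the 15 passed an unadjusted p of 0.05, beside 6.36% of all genes, and 0 passed an adjusted p of 0.05. IGFBP7 (33.8, 42.0 and 34.7 CPM in NC, against 44.5, 62.8 and 45.1 CPM in Si-HOXA3) had a log2 fold change of 0.46 (SE 0.153, edgeR adjusted p = 0.692), and IGFBP4 one of 0.46 (SE 0.182, edgeR adjusted p = 0.733). The list summed to between 6931 and 7091 CPM in NC and between 7609 and 7879 CPM in Si-HOXA3. Most of this came from IGFBP3, LIN28A and IGFBP5, the 3 most abundant per length. These sums did not overlap, but the edgeR adjusted p was 0.806 for IGFBP3, 0.856 for LIN28A and 0.942 for IGFBP5. Gene by gene, the groups did not overlap for 3 of the 15 tested, where 13.3% of all genes had no overlap. IGF binding proteins hold IGF2 outside the cell, and IGFBP3 stood at 740 CPM per kb, against 27.2 CPM per kb, or 109 per kb of unshared exon, for IGF2.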

How the data were processed

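RNA was sequenced from 6 cultures, 3 NC and 3 Si-HOXA3. The authors deposited 1 table of raw counts per Ensembl gene; the study describes ligation-mediated (LM-Seq) libraries read from 1 end, and the labels also name a SMARTER kit. The aligner, counter and strand setting are not given in the sources used here. The submitters' processing notes name the mouse builds GRCm38 and mm10, yet all 58735 identifiers matched human GENCODE 29. The members and lists were chosen with earlier results of these data known. Genes described in full passed an unadjusted p of 0.05, had groups that did not overlap, or were among the 10 highest per kb.

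Counts were filtered (filterByExpr), TMM-normalized and tested with edgeR 4.0.16 (robust quasi-likelihood, Benjamini-Hochberg over 16561 genes) in R 4.3.3, after tests on simulated data. DESeq2 1.42.0 and limma 3.58.1 (voom), other scalings and filters, a replicate block and leaving out each library were alternatives. The reported fit did not pair the libraries by replicate number. The correlations of same-numbered deviations from the group mean were 0.16, 0.11 and -0.07. Differently numbered libraries were not correlated for comparison, so these values do not show whether the numbers pair the libraries. Exon lengths merge all transcripts of a gene. Promoters came from RefSeq.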

Additional observations from a re-analysis of the deposited data

How the results depend on the processing

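No imprinted gene passed an adjusted p of 0.05 under any setting tried. Over all genes, 1 passed in the reported fit, 36 with DESeq2, 100 without a filter on low counts, 67 with limma-voom and sample quality weights, 4 with the replicate block, and 1 to 24 with 1 library left out (24 without Si-HOXA3 replicate 2). The replicate block changed no call of an imprinted gene. The numbers of imprinted genes with an unadjusted p under 0.05 were 3 as reported (6.36% of all genes in that fit), 5 with limma-voom (13.4%), and 0 to 4 with 1 library left out (0 without NC replicate 3, where 3.91% of all genes passed, and 4 without Si-HOXA3 replicate 2, where 10.7% did).

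Over the imprinted genes, the log2 fold changes had a median of -0.05 as reported and 0.011 with limma-voom, and -0.051 to 0.0035 with 1 library left out. For paternally expressed genes it was 0.042 with limma-voom and -0.045 to 0.051 with 1 library left out, and for maternally expressed genes -0.026 with limma-voom and -0.022 (without Si-HOXA3 replicate 2) to 0.37 (without Si-HOXA3 replicate 1). Each median was taken over the imprinted genes that its fit kept, which were not the same in every fit. With limma-voom the sign also turned for IGF2 (0.19), PEG10 (0.041), SGCE (-0.018), L3MBTL1 (0.012), IGF2R (0.029), DIRAS3 (0.098) and ZNF597 (-0.063), and with the replicate block for DIRAS3 (0.0078). The cause was not tested.

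With 1 library left out, the log2 fold change ran across 0 for IGF2 (-0.31 to 0.27), SGCE (-0.021 to 0.078), DLK1 (-0.33 to 0.15), TFPI2 (-0.19 to 0.059), SNURF (-0.12 to 0.37), MEST (-0.11 to 0.035), DIRAS3 (-0.32 to 0.42), MAGEL2 (-0.12 to 0.0035), PEG10 (-0.092 to 0.062), NDN (-0.0047, without Si-HOXA3 replicate 2, to 0.31), L3MBTL1 (-0.33 to 0.077), IGF2R (-0.29 to 0.043) and ZNF597 (-0.022 to 0.38). For every other imprinted gene tested in the reported fit, the log2 fold change kept its sign in all fits that kept the gene. CPM per kb of unshared exon, an alternative chosen after seeing the data, moved SNRPN to 9.53 and SNURF to 5.01. With 3 libraries a group, differences near 0.1 on the log2 scale could not be told from replicate spread. KCNQ1 and RTL1 had too few counts to be tested in the reported fit. Some other fits kept more imprinted genes (31 without a filter, against 29 as reported), and the log2 fold changes of the added genes are not given here.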
